A study of Mus musculus with 24 samples.

Results

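Gene expression in the efferent duct was compared across birth, between embryonic day 18.5 (E18.5) and postnatal day 1 (P1). The arrays were chosen by their labelled tissue and age, which gave 2 arrays of efferent duct at E18.5 and 2 at P1, or 4 of the 24 Affymetrix arrays in the series. All 4 held total RNA of male CD1 mice, an outbred stock, and the labels name neither a treatment nor a mutant allele. The other 20 arrays cover the efferent duct at E14.5 and E16.5 and the epididymis and vas deferens at all 4 ages, in pairs of the same strain and sex. The labels do not say whether an array is 1 animal or a pool, so the p-values here reflect the spread between these arrays alone, which may be technical.

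The efferent ducts are the tubules that join the testis to the epididymis, and their epithelium takes up most of the fluid that leaves the testis. They arise in the fetus from mesonephric tubules and carry absorptive cells with a brush border beside cells with motile cilia. Birth moves every organ from placental oxygen and glucose to lung breathing and to milk, which is rich in fat. When oxygen is low, hypoxia-inducible factors (HIF) bind DNA at a short core, ACGTG or GCGTG, and raise genes of glucose uptake, glycolysis and blood vessel growth. Fatty acids activate the PPAR receptors, which raise genes of fatty acid transport and oxidation.

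The deposited values are ratios of each probe set to its own median over the 24 arrays, and they are given here as log2 ratios. A log2 ratio of 0 is that median, and the scale shows differences between arrays but never the level of one gene against another. Each of 18193 genes is read from 1 probe set, the one that varied most over the 24 arrays. A gene was called when the adjusted p of limma, a linear model with a shared spread over the 12 groups of tissue and age, was under 0.05. Differences are P1 minus E18.5 with their SE, and array values are given in the order of the replicate numbers 1 and 2.

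In the 4 arrays, the 5' minus 3' controls differed little. This difference was 0.04 to 0.14 for the Gapdh control probe sets. The hybridisation controls stood at log2 ratios of -0.26 and -0.31 at E18.5 and of -0.21 and -0.06 at P1. The 4 early efferent duct arrays (E14.5 and E16.5) had a wider spread of log2 ratios, with interquartile ranges of 0.54 to 0.71 against 0.23 to 0.33. Among the 4 compared arrays these ranges were 0.23 and 0.27 at E18.5 and 0.33 and 0.30 at P1. Hybridisation controls and spread were thus both higher in both P1 arrays, and the part of either in the differences was not tested. Fits with quantile normalization, which gives every array the same spread, are given below. The 4 late vas deferens arrays (E18.5 and P1) had Gapdh 5' minus 3' differences of -2.94 to -2.68. For control RNA added to the samples they had -1.88 to -1.49, against 0.10 to 0.28 in the 4 compared arrays. Comparisons with that segment thus carry a difference in 5' minus 3' controls, in added RNA as well, whose part was not tested. Of 11 measured markers of efferent duct epithelium, 8 were higher in all 4 efferent duct arrays than in every epididymis and vas deferens array of the same ages, among them Aqp1, Cldn2, Lrp2 and Vil1. Slc9a3, Esr1 and Emx2 were not.

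Of the 18193 genes, 97 were called, or 0.533%, with 63 higher at P1 (0.346%) and 34 lower (0.187%). Of these, 17 were higher and 8 lower by 2-fold or more. At an unadjusted p under 0.05 there were 1534 of the 18193 genes, the background for such counts in the lists below. The difference was above 0 for 52.7% of all genes, and the median over all genes was 0.01. In all 97 called genes the P1 arrays did not overlap the E18.5 arrays, which was also so, on the higher side, for 25% of all genes and, on the lower side, for 19.7%. Leaving out 1 efferent duct array left far fewer calls, with 13 without E18.5 replicate 2, 29 without E18.5 replicate 1, 22 without P1 replicate 2 and 67 without P1 replicate 1. The count was 2 when only the 8 efferent duct arrays were fitted and 21 when only the 4 compared arrays were. No called gene changed sign in any of these fits, and 10 genes were called in each of the 4 fits that left out 1 efferent duct array (Angptl4, Ankrd37, Cd36, Cilp, Cirbp, Cyp2e1, H2-Aa, Pfkl, Pgam1 and Slc2a1).

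**Figure D1:**
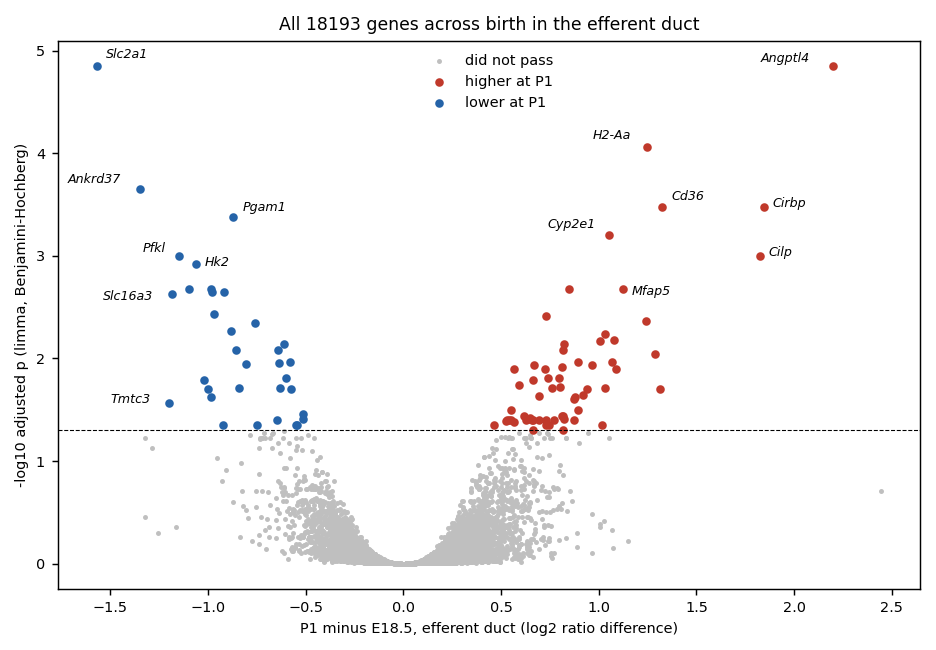
Each point is 1 of the 18193 genes, with the P1 minus E18.5 difference in log2 ratio on the x axis and -log10 of the limma adjusted p on the y axis. The dashed line is an adjusted p of 0.05, and the 63 red and 34 blue points above it are the genes higher and lower at P1. Slc2a1 at -1.57 and Angptl4 at 2.20 have the smallest adjusted p.

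The genes lower at P1 were led by glucose transport, glycolysis and the response to low oxygen. Of the 34 lower genes, 12 belong to a list of 23 measured genes of hypoxia response and glycolysis. In that list 12 of 23 fell, none rose and 11 did not pass, against 0.187% of all genes called lower. The number called was 3 without E18.5 replicate 2, 8 without E18.5 replicate 1, 5 without P1 replicate 2 and 12 without P1 replicate 1. It was 6 with the 4 compared arrays alone and 0 with the 8 efferent duct arrays alone. The median of its differences was -0.61, against 0.01 over all genes, and 22 of 23 differences were below 0, against 47.3% of all genes. In 21 members (91.3%) both P1 arrays lay below both E18.5 arrays, against 19.7% of all genes. The list was assembled with earlier results of these data known, so its count describes these arrays and is not independent support.

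Promoters of 4 of these genes are shown because they carry the HIF core ACGTG beside the data on the same genes. Sequences are from RefSeq on GRCm38.p6 and run from 250 bases before the gene's start to 50 after it, 5' to 3' on the gene's strand. Slc2a1 lies at chr4:119108495-119108794 on the plus strand, Ankrd37 at chr8:45999801-46000100 on the minus strand, Egln3 at chr12:54203825-54204124 on the minus strand and Pgk1 at chrX:106186850-106187149 on the plus strand. Capitals mark ACGTG on either strand.
Slc2a1: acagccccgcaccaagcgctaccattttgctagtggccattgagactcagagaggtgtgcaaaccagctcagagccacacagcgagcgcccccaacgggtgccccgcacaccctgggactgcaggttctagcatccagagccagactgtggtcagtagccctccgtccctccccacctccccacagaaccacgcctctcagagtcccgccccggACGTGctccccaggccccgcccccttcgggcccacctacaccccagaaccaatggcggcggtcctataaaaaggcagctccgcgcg
Ankrd37: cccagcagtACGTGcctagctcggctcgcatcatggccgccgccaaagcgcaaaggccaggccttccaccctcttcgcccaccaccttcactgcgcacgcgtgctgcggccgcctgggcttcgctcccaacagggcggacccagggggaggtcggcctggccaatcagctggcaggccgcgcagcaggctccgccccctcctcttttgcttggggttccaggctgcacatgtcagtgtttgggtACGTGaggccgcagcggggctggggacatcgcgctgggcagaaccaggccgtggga
Egln3: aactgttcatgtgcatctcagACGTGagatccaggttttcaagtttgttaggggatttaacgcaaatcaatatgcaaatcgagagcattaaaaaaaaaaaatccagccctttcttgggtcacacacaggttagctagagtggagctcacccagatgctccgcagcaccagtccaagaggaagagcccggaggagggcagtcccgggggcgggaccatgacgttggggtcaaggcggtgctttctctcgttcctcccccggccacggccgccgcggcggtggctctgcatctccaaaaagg
Pgk1: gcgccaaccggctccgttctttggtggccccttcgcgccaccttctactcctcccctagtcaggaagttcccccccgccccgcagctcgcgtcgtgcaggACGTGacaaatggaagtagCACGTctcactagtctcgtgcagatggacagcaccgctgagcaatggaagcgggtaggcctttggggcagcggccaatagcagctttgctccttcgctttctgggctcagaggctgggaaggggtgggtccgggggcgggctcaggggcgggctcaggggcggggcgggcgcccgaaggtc

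The core began 36 bases before the start of Slc2a1 (offset -36), at -241 and -6 in Ankrd37, at -229 in Egln3 and at -150 and -131 in Pgk1. Searched on both strands, ACGTG was present in 17 of the 22 promoters of the list found in the table (77.3%) and in 10 of the 12 promoters of its called genes (83.3%). It was present in 19.6% of all 32851 promoters and in 26.1% of the 14452 tested genes with a promoter. The other core, GCGTG, was present in 15 of 22 (68.2%) and in 7 of the 12 called genes (58.3%), against 32.4% of all promoters and 47.8% of the tested genes with a promoter. CACGTG, an E-box that contains ACGTG, was present in 3 of 22 (13.6%), against 7.15% of all promoters and 10.2% of the tested genes with a promoter. The list was written as one of hypoxia response genes, so many HIF cores in its promoters were likely from the start. These shares describe the list and are no test of HIF in these arrays. A match describes these letters only, and these arrays hold no measure of binding.

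Slc2a1, the glucose transporter GLUT1, had log2 ratios of 0.24 and 0.60 at E18.5 and of -1.03 and -1.27 at P1. Both P1 arrays were lower than every other efferent duct array, including those of E14.5 and E16.5, and the gene fell 2.97-fold (difference -1.57 ± 0.14, adjusted p = 1.39e-05). Its other 2 probe sets gave -1.41 and -1.34. Slc16a3, the lactate exporter MCT4, was at 0.51 and 0.83 and then at -0.24 and -0.79, a difference of -1.18 ± 0.17 (adjusted p = 0.00237). Thus the transporter that brings glucose in and one that takes lactate out were both lower in both P1 arrays.

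Enzymes at several steps of glycolysis were called lower, and the steps not named here are not covered. Hk2, a hexokinase that traps glucose in the cell, read -0.19 and 0.09 at E18.5 and -1.14 and -1.08 at P1, and fell 2.09-fold (-1.06 ± 0.14, adjusted p = 0.00121). Pfkl, the liver-type phosphofructokinase that commits sugar to glycolysis, went from 0.85 and 1.01 to -0.12 and -0.32 (-1.15 ± 0.15, adjusted p = 0.000996). Further down the pathway the called differences were -0.88 for Aldoa (aldolase), -0.61 for Tpi1 (triosephosphate isomerase) and -0.60 for Pgk1 (phosphoglycerate kinase). Pgam1, the phosphoglycerate mutase that acts next and a gene named after its values were seen, read 0.27 and 0.16 and then -0.56 and -0.75 (-0.87 ± 0.10, adjusted p = 0.000414). Ldha, which turns pyruvate into lactate, read 0.39 and 0.47 and then -0.44 and -0.54 (-0.92 ± 0.13, adjusted p = 0.00225). For each of these enzymes both P1 arrays lay below both E18.5 arrays, against 19.7% of all genes. None of the 97 called genes overlapped, so this adds nothing to their calls. Pfkl was less even across probe sets, since its other 2 gave -1.39 and -0.26, while the other 4 of Aldoa ranged from -0.89 to -0.49.

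Genes of the oxygen-sensing loop and other HIF targets fell as well. Egln3 and Egln1 encode prolyl hydroxylases that mark HIF for destruction when oxygen is present, and both are themselves raised by HIF. Egln3 read 0.54 and 0.85 at E18.5 and -0.27 and -0.55 at P1, a fall of 2.14-fold (-1.10 ± 0.16, adjusted p = 0.00212), and its other probe set also gave -1.10. Egln1 fell by 0.58 (adjusted p = 0.0109). Ankrd37, a small ankyrin repeat protein and HIF target, read 0.44 in both E18.5 arrays and -0.76 and -1.06 at P1 (-1.35 ± 0.15, adjusted p = 0.000221).

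Vegfa, the growth factor of blood vessels, read 0.27 and 0.32 at E18.5 and -0.77 and -0.62 at P1 (-0.98 ± 0.14, adjusted p = 0.00212). Bnip3, which directs mitochondria to autophagy, fell by 0.76 (adjusted p = 0.00455). Ndufa4l2, a mitochondrial protein outside the list, read 0.91 and 1.14 and then 0.14 and -0.04 (-0.97 ± 0.15, adjusted p = 0.0037). Flt1, a receptor for Vegfa made by endothelial cells, had a difference of -0.73 that did not pass (adjusted p = 0.06). Of 17 endothelial markers limma called none, 4 had an unadjusted p under 0.05, and the median was -0.10.

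The 11 list members that did not pass had differences from -0.72 to 0.41. P4ha2 at -0.72 (adjusted p = 0.0599), Pfkfb3 at -0.55 and Car9 at -0.51 had the same direction as the called genes, and P4ha1 at -0.70 had a large SE of 0.39. Adm, the vasodilator adrenomedullin and a HIF target in many cells, was the exception in direction, with a difference of 0.41 (adjusted p = 0.564). Mxi1 at -0.06 and Ndrg1 at -0.15 were close to 0.

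Across the 4 ages sampled, the hypoxia and glycolysis genes peaked at E18.5. For 22 of the 23 list members the mean of the 2 E18.5 arrays was the highest of the 4 ages in the efferent duct, against 22.1% of all genes. Egln3 climbed from -1.28 and -1.74 at E14.5 to -0.68 and -0.76 at E16.5, before the values of 0.54 and 0.85 at E18.5. Vegfa was at -0.84 and -0.61 at E14.5 and at -0.99 and -0.70 at E16.5, so its P1 values lay within the range of those 2 ages. Slc2a1 was instead lower at P1 than at any earlier age. The E14.5 and E16.5 arrays are the ones with the wider spread of ratios, and the rise to E18.5 uses the same E18.5 arrays as the fall to P1.

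**Figure D2:**
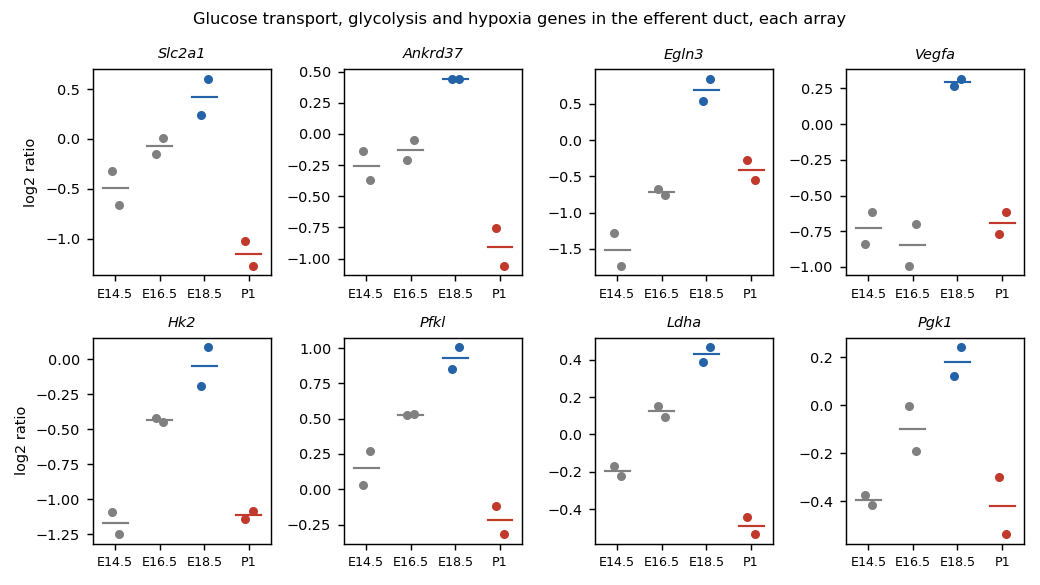
Log2 ratio of 8 genes of glucose transport, glycolysis and hypoxia response in the 8 efferent duct arrays, by age, with 1 point per array and a bar at the mean of the 2. In each panel both E18.5 points (blue) lie above both P1 points (red). Slc2a1 and Ankrd37 end below their E14.5 and E16.5 values, whereas Egln3 at P1 stays above them.

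The same genes fell in the other 2 segments, which share no arrays with the efferent duct. The labels do not say whether the segments of 1 age came from the same animals. The fit also uses 1 spread per gene for all 3 segments, so calls in the segments are not independent of each other. The median of the 23 differences was -0.62 in the epididymis and -0.70 in the vas deferens, against 0.02 and 0.003 over all genes. Called lower were 11 members in the epididymis, against 0.154% of all genes there. In the vas deferens 15 were called lower, against 0.533% of all genes there. Of the 23 members, 21 had differences below 0 in all 3 segments, and 11 were called lower in all 3. Ankrd37 fell by 1.58 in the epididymis and by 1.30 in the vas deferens, and Ldha fell by 1.00 and 0.97. Hk2 differed in size, at -0.25 in the epididymis (adjusted p = 0.86) against -1.06 in the efferent duct, but the difference between the segments, -0.82 ± 0.20, did not pass (adjusted p = 0.776).

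**Figure D3:**
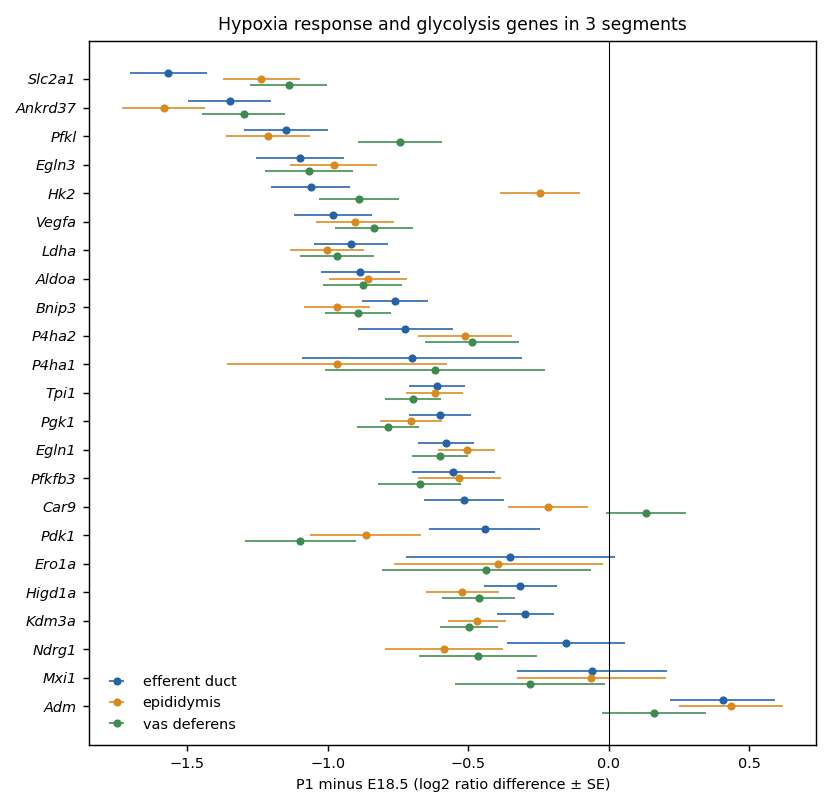
P1 minus E18.5 difference in log2 ratio with its SE from limma for the 23 hypoxia and glycolysis genes, in efferent duct (blue), epididymis (orange) and vas deferens (green), ordered by the efferent duct value. Most points lie left of 0 in all 3 segments. Adm lies right of 0 in all 3, and Car9 in the vas deferens only.

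Among the other lower genes were several outside energy metabolism. Afm, the vitamin E-binding protein afamin, read 1.32 and 1.06 at E18.5 and 0.49 and -0.11 at P1, a called fall (adjusted p = 0.02). Its differences in the epididymis and vas deferens were 0.24 and 0.19, neither called. The difference between the segments did not pass, at -1.24 against the epididymis (adjusted p = 0.463) and -1.19 against the vas deferens (adjusted p = 0.142). Kcne3, a small subunit of potassium channels in epithelia, read 0.95 and 1.17 and then 0.17 and -0.01 (-0.98 ± 0.14, adjusted p = 0.00225). Adamts20, a secreted metalloprotease, fell by 0.92 (adjusted p = 0.0445). Both P1 arrays were below both E18.5 arrays in these 3 genes, where no called gene overlapped. Dubr, a long noncoding RNA, read 0.52 and 0.61 and then -0.20 and -0.71 (-1.02 ± 0.19, adjusted p = 0.0163), and was also called lower in the epididymis (-0.90) and vas deferens (-0.96). Tmtc3 was called at -1.20, but its other 3 probe sets ranged from -0.56 to 0.07, so that call rests on 1 probe set.

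Of the lower genes named after their values were seen, Cyp24a1, the enzyme that breaks down active vitamin D, read 1.01 and 0.99 and then 0.30 and 0.01 (-0.84 ± 0.16, adjusted p = 0.0193). Scd1, which desaturates fatty acids, fell by 0.75 (adjusted p = 0.0444), and Cd44, the hyaluronan receptor, by 0.65 (adjusted p = 0.0401). The other 3 probe sets of Cd44 ranged from -0.53 to -0.16, with a median of -0.22. Mif was called at -0.64 with a median of 0.05 over its other 2 probe sets, and Ak4 at -0.86 with a median of -0.10 over its other 4.

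Some genes of fatty acid uptake and oxidation rose, although most of the list for that pathway did not pass. Angptl4, a secreted inhibitor of lipoprotein lipase raised by PPAR and by fasting, had the largest called difference. It read -0.56 and -0.55 at E18.5 and 1.61 and 1.68 at P1, a rise of 4.59-fold (2.20 ± 0.19, adjusted p = 1.39e-05), with both P1 arrays above the values of all earlier ages. The gene's other probe set gave 0.06. In the epididymis Angptl4 rose by 1.83 and in the vas deferens by 1.43, on the same probe set.

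Cd36, a membrane protein that takes up long-chain fatty acids, read 1.24 and 1.29 and then 2.50 and 2.69, and rose 2.51-fold (1.33 ± 0.15, adjusted p = 0.000336). Its other 2 probe sets gave 0.30 and 1.46. Cpt1a carries fatty acids into mitochondria and sets the pace of their oxidation. It read 0.82 and 0.69 and then 1.60 and 1.70 (0.89 ± 0.18, adjusted p = 0.0321), and its other 2 probe sets gave 0.84 and 0.94. Vnn1, a pantetheinase and PPAR target, rose by 0.80 (adjusted p = 0.0156).

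In the list of 25 measured genes of fatty acid oxidation and PPAR targets, 3 rose (Angptl4, Cpt1a and Vnn1), none fell and 22 did not pass, against 0.346% of all genes called higher. The median difference was 0.20, with 20 of 25 above 0, against 52.7% of all genes. In the epididymis the median was 0.11, with 20 of 25 above 0 and 2 called higher, against 0.214% of all genes there. The list did not move up as a whole in the vas deferens. There its median was -0.04, with 10 of 25 above 0 and 1 called higher, against 0.539% of all genes. Enzymes of the mitochondrial pathway had small values, with differences of 0.21 for Acadm, 0.13 for Acadl and 0.18 for Cpt2, none called. Pdk4, a PPAR target that holds back glucose oxidation, was at -0.01, and Ppara itself was at -0.62 (adjusted p = 0.22). Ech1 and Eci2, enzymes for unsaturated fatty acids that were named after their values were seen, rose by 0.73 (adjusted p = 0.00383) and 0.59 (adjusted p = 0.0183). With quantile normalization of the arrays the median of the list was 0.05 and 1 member was called. That number was also 1 without E18.5 replicate 2 and without P1 replicate 1. Of the 10 adipocyte markers limma called none, 1 had an unadjusted p under 0.05, and the median was 0.03.

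Cirbp, an RNA-binding protein raised by mild cooling of cells, had the next largest rise among called genes. Its log2 ratios were -0.53 and -0.44 at E18.5 and 1.38 and 1.32 at P1, a rise of 3.59-fold (1.84 ± 0.21, adjusted p = 0.000336). The 2 P1 arrays stood well above all 6 earlier arrays, the highest of which was 0.02. Cirbp also rose in the epididymis (1.64, adjusted p = 0.000839) and the vas deferens (1.03, adjusted p = 0.0207). Its promoter at chr10:80167589-80167888, plus strand (1 of 2 in the table), is shown for the letters TCCCCGCC, known as a mild-cold response motif and marked in capitals.
Cirbp: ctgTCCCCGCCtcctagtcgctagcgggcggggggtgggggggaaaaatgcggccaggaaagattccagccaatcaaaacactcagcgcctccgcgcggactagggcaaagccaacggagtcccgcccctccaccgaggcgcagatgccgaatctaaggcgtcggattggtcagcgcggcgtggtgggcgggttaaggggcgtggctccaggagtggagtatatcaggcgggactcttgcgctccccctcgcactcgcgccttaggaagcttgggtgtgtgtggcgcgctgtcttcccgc

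The motif began at offset -247. TCCCCGCC on either strand was present in 5.38% of all promoters and in 9.58% of the 14452 tested genes with a promoter. Nr1d2, the clock repressor REV-ERB beta, was the 1 gene called of 18 circadian clock genes, against 0.346% of all genes called higher. It read 0.19 and 0.08 and then 1.01 and 0.90 (0.82 ± 0.14, adjusted p = 0.00731), and the list had a median of 0.01. The labels give no hour of collection, and its part was not tested.

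**Figure D4:**
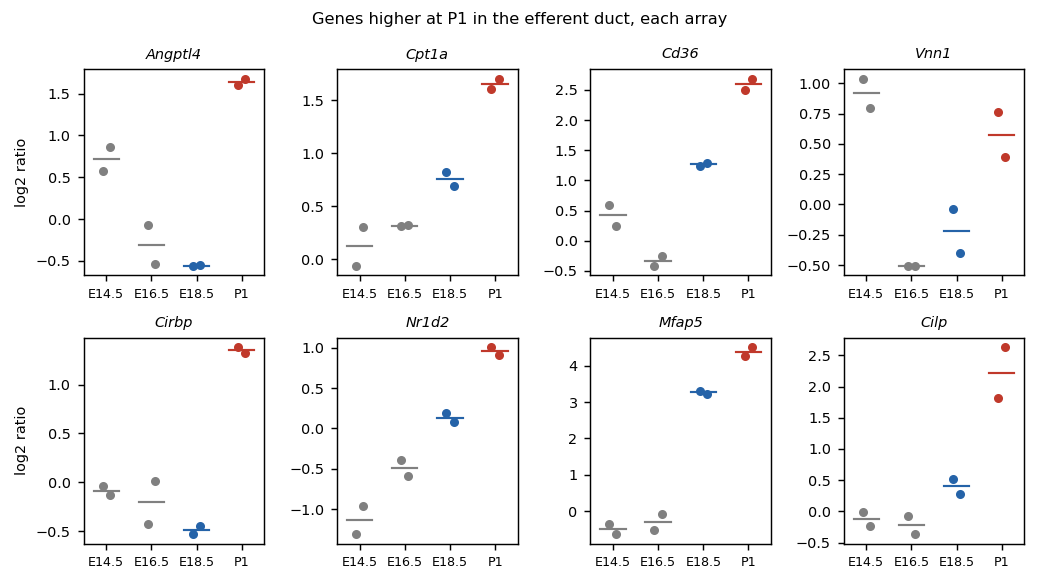
Log2 ratio of 8 genes called higher at P1 in the 8 efferent duct arrays, by age, with 1 point per array and a bar at the mean of the 2. In every panel both P1 points (red) lie above both E18.5 points (blue). Angptl4 and Cirbp lie at or below 0.87 until E18.5, while Mfap5 was already at 3.30 and 3.23 at E18.5.

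Cilp, Angptl1, Mfap5 and Myh11 were among the 15 largest rises, while few members of the matrix and smooth muscle lists passed. Cilp, a secreted matrix protein, read 0.52 and 0.28 at E18.5 and 1.82 and 2.63 at P1, a rise of 3.54-fold (1.82 ± 0.24, adjusted p = 0.000996). Mfap5, a microfibril protein that binds elastic fibres, read 3.30 and 3.23 and then 4.26 and 4.51 (1.12 ± 0.16, adjusted p = 0.00212). Angptl1, a secreted angiopoietin-like protein, read 1.96 and 2.41 and then 3.13 and 3.81 (1.29 ± 0.22, adjusted p = 0.00907), but its other 2 probe sets gave -0.16 and 0.99. Both P1 arrays lay above both E18.5 arrays in each, as no called gene overlapped. The 2 P1 arrays of Cilp differed from each other by more than the 2 E18.5 arrays.

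Dpep1, a membrane dipeptidase on the list of mesenchymal fibroblast markers, rose by 0.81 (adjusted p = 0.0122). In that list 2 of 14 rose (Mfap5 and Dpep1), against 0.346% of all genes called higher, none fell, and the median was 0.18. In the list of 32 interstitial matrix genes limma called only Mfap5, and the median was 0.03. At an unadjusted p under 0.05 there were 11, with 5 higher and 6 lower. Limma called none of 22 basement membrane genes, of which 4 had an unadjusted p under 0.05 and 15 were below 0, with a median of -0.12.

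Of 22 smooth muscle genes 2 rose and none fell, with a median of 0.21, against 0.346% of all genes called higher. None of them was called by limma without E18.5 replicate 2 or without either P1 array. Myh11, the smooth muscle myosin heavy chain, read 0.13 and -0.02 and then 1.13 and 1.05 (1.03 ± 0.16, adjusted p = 0.00584), but its other probe set gave 0.08. Myl9, a myosin light chain, rose by 0.56 (adjusted p = 0.0128). Cnn1 at 0.76 (adjusted p = 0.0599) and Acta2 at 0.24 (adjusted p = 0.518) did not pass. With all arrays 7 smooth muscle genes had an unadjusted p under 0.05. In bulk tissue such as this, more cells of a type and more RNA per cell cannot be told apart.

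H2-Aa and a few macrophage genes rose, while most genes of the immune lists did not pass. H2-Aa, the alpha chain of an MHC class II molecule that presents peptides to T cells, read 1.90 and 1.66 at E18.5 and 2.95 and 3.11 at P1. It rose 2.38-fold (1.25 ± 0.13, adjusted p = 8.64e-05), and its other 3 probe sets ranged from 0.01 to 1.09. The other class II genes had differences in the same direction that did not pass. H2-Ab1, the beta chain, read 1.58 and 1.34 and then 2.24 and 2.27 (0.80 ± 0.21, adjusted p = 0.125), and Cd74, the invariant chain, read 2.05 and 1.96 and then 2.43 and 2.80 (0.61 ± 0.21, adjusted p = 0.301). H2-Eb1 overlapped between the ages, at 0.70 and 0.57 and then 0.60 and 1.35.

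Of 16 antigen presentation genes 1 rose (H2-Aa), against 0.346% of all genes called higher, none fell, and the median was 0.32. In 13 of them (81.2%) both P1 arrays lay above both E18.5 arrays, against 25% of all genes. At an unadjusted p under 0.05 there were 6, and with quantile normalization 1, with a median of 0.10. Ciita, the coactivator that switches class II genes on, had a difference of 0.00. The H2-Aa promoter at chr17:34287774-34288073, minus strand, is shown because it holds the Y box of class II genes, CTGATTGG, in capitals at offset -51. This motif, on either strand, was present in 4.10% of all promoters and in 5.87% of the 14452 tested genes with a promoter.
H2-Aa: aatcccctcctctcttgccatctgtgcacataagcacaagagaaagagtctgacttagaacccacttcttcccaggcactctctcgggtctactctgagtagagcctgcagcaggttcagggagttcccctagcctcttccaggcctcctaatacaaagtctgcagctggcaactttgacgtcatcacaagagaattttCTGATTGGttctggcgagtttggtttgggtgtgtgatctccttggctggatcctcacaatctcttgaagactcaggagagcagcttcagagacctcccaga

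In the epididymis and vas deferens H2-Aa stayed near its median over the arrays at both ages, between -0.24 and 0.08 in all 8 arrays. The change across birth differed between the segments, by 1.31 ± 0.18 against the epididymis (adjusted p = 0.0183) and by 1.23 ± 0.18 against the vas deferens (adjusted p = 0.00843). It was the only gene of 18193 (0.0055%) called for a difference from the epididymis, where 592 had an unadjusted p under 0.05. The call held in 11 of 18 other settings, with adjusted p-values between 0.000382 and 0.597.

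Macrophage markers moved the same way as the class II genes. All 20 markers of macrophages and leukocytes had differences above 0, from 0.17 to 0.82 with a median of 0.38. Of the 20, 3 were called, against 0.346% of all genes called higher. In 17 of them (85.0%) both P1 arrays lay above both E18.5 arrays, against 25% of all genes. Csf1r, the receptor for the macrophage growth factor, read 0.62 and 0.54 and then 1.18 and 1.31 (0.67 ± 0.12, adjusted p = 0.0163). Cd68, a lysosomal protein of macrophages, read 0.62 and 0.65 and then 1.23 and 1.50 (0.73 ± 0.15, adjusted p = 0.0401). Lyz1, a lysozyme with a near-identical neighbour in Lyz2, rose by 0.82 (adjusted p = 0.0361).

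The mean log2 ratio over the 20 markers was 0.60 and 0.59 at E18.5 and 0.99 and 1.09 at P1. In the epididymis it was -0.14 and -0.12 at E18.5 and 0.01 and 0.06 at P1. In the vas deferens it was -0.75 and -0.80 and then -0.67 and -0.61. The markers thus also moved up there, by less. The median difference was 0.13 in the epididymis, with 17 of 20 above 0, and 0.15 in the vas deferens, with 14 of 20, and none was called in either. Ratios hold no levels, so whether a marker is near background cannot be read from them. At an unadjusted p under 0.05 there were 12 of the 20. With quantile normalization the median of the 20 differences was 0.14, and limma called none, with 3 at an unadjusted p under 0.05. None was called when any 1 of the 4 arrays was left out, with 7 to 11 at an unadjusted p under 0.05. Gpr34, a receptor of microglia and macrophages, was called at 1.07 ± 0.18 (adjusted p = 0.0109), and P2ry13 and Fcna, named after their values were seen, at 0.74 and 0.76. The part of macrophage content in the rise of H2-Aa was not tested. Limma called none of the markers of neutrophils, mast cells and lymphocytes, which had medians of 0.09, 0.16 and 0.03, with 0, 2 and 0 members at an unadjusted p under 0.05.

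**Figure D5:**
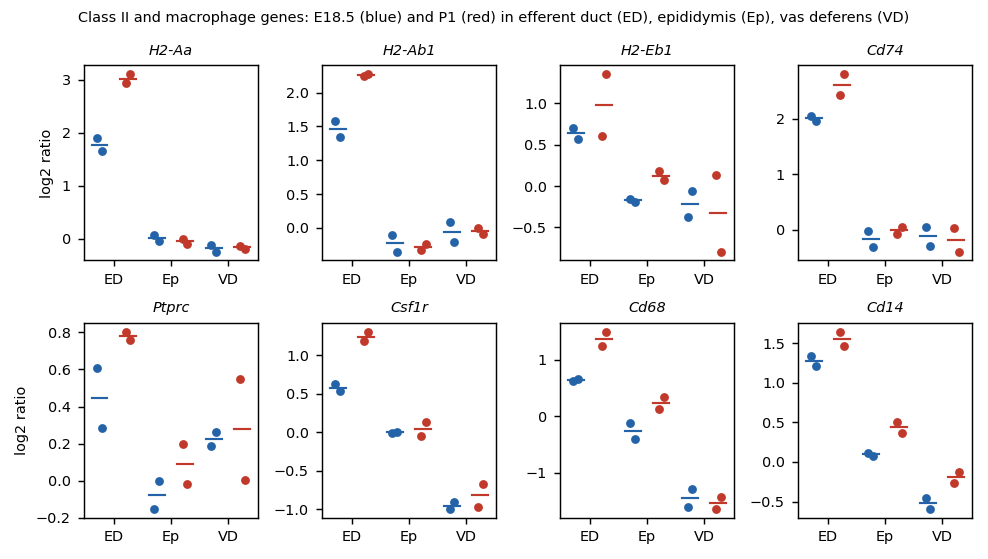
Log2 ratio of 4 class II genes (top) and 4 leukocyte markers (bottom) at E18.5 (blue) and P1 (red) in efferent duct, epididymis and vas deferens, with 1 point per array and a bar at the mean of the 2. H2-Aa and H2-Ab1 are higher at P1 in the efferent duct and lie near 0 in the other segments. Csf1r and Cd68 are highest in the efferent duct at P1.

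Other large rises belong to no list used here. Cyp2e1, a cytochrome that oxidises small molecules, read 1.93 and 1.67 and then 2.96 and 2.74 (1.05 ± 0.13, adjusted p = 0.000627). Gstt1, a glutathione transferase, rose by 1.03 (adjusted p = 0.0193). Cxcl14, a chemokine, read -0.15 and -0.61 and then 0.61 and 1.26 (1.31 ± 0.25, adjusted p = 0.02), with wide gaps within each pair of arrays. The other probe set of Cxcl14 gave 0.22. Dner, a transmembrane Notch ligand, rose by 1.09 (adjusted p = 0.0127). Ccdc122 rose by 1.24 (adjusted p = 0.00431), and Evi2a by 1.02 (adjusted p = 0.0445), though the other probe set of Evi2a gave 0.13.

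Genes of the absorptive and ciliated epithelium gave few calls. Of 11 efferent duct epithelial markers limma called none, 3 had an unadjusted p under 0.05, and the median was 0.00. The water channel Aqp1 read 3.14 and 3.09 at E18.5 and 3.43 and 3.40 at P1 (0.30, adjusted p = 0.52). The tight junction protein Cldn2 read 4.51 and 4.58 and then 4.81 and 4.69, and the endocytic receptor Lrp2 read 3.35 and 3.23 and then 3.49 and 3.10. Limma called none of 39 ion and water transport genes, 6 had an unadjusted p under 0.05, and the median was -0.05. Fxyd2, a subunit of the sodium pump, had the lowest difference of the epithelial markers at -0.73, with 3.04 and 2.06 in the 2 P1 arrays (adjusted p = 0.351).

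There were 3 calls, all higher, in the lists of the epithelial surface and cilia, against 0.346% of all genes called higher. Enpep, a brush border aminopeptidase, read -0.45 and -0.48 and then 0.25 and 0.27 (0.72 ± 0.13, adjusted p = 0.0127), the 1 called of 19 brush border genes. Lrpap1, the chaperone of Lrp2 and its relatives, rose by 0.52 (adjusted p = 0.041), the 1 called of 11 endocytic genes, though its other 3 probe sets had a median of 0.10. Enkur, a protein of motile cilia and sperm tails, rose by 0.66 (adjusted p = 0.0401), the 1 called of 41 cilium genes. Foxj1, the master regulator of motile cilia, read 0.52 and 0.37 and then 0.83 and 0.65 (0.30 ± 0.11, adjusted p = 0.347). In 14 of the 41 cilium genes both P1 arrays lay above both E18.5 arrays, or 34.1%, against 25% of all genes, and the list's median was 0.05.

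Lists of proliferation, hormone response and patterning had no called member by limma. Among 37 cell cycle genes 2 had an unadjusted p under 0.05 and the median was -0.04, and Mki67 read -0.11 and -0.13 and then -0.35 and -0.17. Among 20 glucocorticoid response genes 7 had an unadjusted p under 0.05, 3 higher and 4 lower, the median was 0.01, and Fkbp5 was at 1.15 and 1.29 and then 1.24 and 0.97. The 11 steroid receptor and enzyme genes had 1 member at an unadjusted p under 0.05 and a median of 0.25, with 0.46 for the estrogen receptor Esr1 (adjusted p = 0.654). The 23 immediate early genes had 8 members at an unadjusted p under 0.05, all lower, and a median of -0.22, with -0.57 for Fos (adjusted p = 0.381) and -0.67 for Fosl2 (adjusted p = 0.0546). Medians were -0.12 for 13 Wolffian duct transcription factors, 0.01 and -0.04 for anterior and posterior HOX genes, and -0.11 for 20 Notch genes, with 3, 1, 2 and 6 members at an unadjusted p under 0.05. Of the Notch genes 16 were below 0. These lists show no call at this number of arrays, which does not show that their genes stayed the same.

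Of the 97 called genes, 91 had a difference of the same sign in the epididymis and 85 in the vas deferens, against 60% and 54.1% of all genes. In both the efferent duct and the epididymis 31 were called with the same sign, or 32.0% of the 97 and 46.3% of the 67 called in the epididymis. With the vas deferens 27 were shared, or 27.8% of the 97 and 13.8% of its 195. All 3 segments shared 20 calls, 16 lower and 4 higher. The 4 higher were Angptl4, Cirbp, Mfap5 and 1500011B03Rik, and 11 of the 16 lower were hypoxia list members.

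Differences between the efferent duct and the vas deferens in the change across birth were called for 19 genes (0.104%), with 9 higher (0.0495%) and 10 lower (0.055%). Of these 19, 3 were also called in the efferent duct itself, H2-Aa, Enpep and Tnnt1. Enpep rose in the efferent duct and fell in the vas deferens, where it read 0.47 and 0.55 and then -0.48 and -0.07, a gap of 1.51 between the segments (adjusted p = 0.0018). Tnnt1, a troponin of slow muscle, rose by 0.64 in the efferent duct and was at -0.49 in the vas deferens, uncalled there (gap 1.14, adjusted p = 0.0186). The late vas deferens arrays are the ones with the lower 5' minus 3' controls.

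For 53 of the 97 called genes the array holds other probe sets with the same symbol. Their median had the same sign as the call in 45 genes, and the same sign with at least 50% of the size in 25. Slc2a1, Egln3, Aldoa, Cpt1a, Nr1d2 and Dner were among those 25, whereas Angptl4, Myh11, Tmtc3 and Evi2a were not.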

How the data were processed

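Total RNA was hybridised to Affymetrix arrays, 2 per group. The authors' deposited values are a ratio on a linear scale computed by RMA (version not given in the sources used here), per the submitters' processing notes. The median over the 24 arrays was 1, within 1e-04, for 45081 of 45101 probe sets, so levels and signal over background cannot be read, and precision is limited by how many arrays there are. Log2 of the ratio was taken. After 64 controls, probe sets with 1 gene symbol were kept (34945), while 932 with several and 9160 with none were left out. A gene was represented by its probe set with the largest variance. Limma 3.58.1 in R 4.3.3, tested on simulated data, fitted 12 group means to all 24 arrays, two-sided, with Benjamini-Hochberg adjustment over 18193 genes.

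Genes named by rule were the top 15 calls by size in each direction, the 10 smallest p per difference between segments, and from each list up to 6 called members in each direction, its first 4, and any member of a list of at most 16, with predicted genes and families of shared sequence skipped. Other list members are given by value where a list is described, and Pgam1, Ak4, Mif, Ech1, Eci2, Scd1, P2ry13, Fcna, Cd44 and Cyp24a1 were named after their values were seen. Members and lists were chosen with earlier results of these data known; 988 of 1069 list entries were measured. Same-numbered arrays deviated together little in the efferent duct (r of -0.07 to 0.31 across genes, 0.03 between E18.5 and P1), so arrays with 1 number were not treated as pairs. Alternatives were quantile normalization, median centring, all probe sets, a variance filter, array weights, a replicate block and leaving out arrays.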

Additional observations from a re-analysis of the deposited data

Results flagged for a closer look

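The change across birth in H2-Aa differed between the efferent duct and the epididymis by 1.31 by a test of the difference itself. It passed in 11 of 18 settings, with values from 0.73 to 1.43. Against the vas deferens H2-Aa differed by 1.23 and passed in 14 of 17 settings.

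The other differences from the vas deferens involve arrays that stand apart in 5' minus 3' controls, whose part was not tested. Of genes that moved in the efferent duct, Enpep differed by 1.51 and passed in 17 of 17 settings, and Tnnt1 by 1.14 and passed in 9 of 17.

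The other genes with such a difference were not called in the efferent duct itself. Trp63, the transcription factor of basal cells, differed by -3.09, with log2 ratios of 0.37 and 0.35 at E18.5 and 3.78 and 3.05 at P1 in the vas deferens, and of -0.26 to -0.07 in the 4 efferent duct arrays. It passed in 17 of 17 settings, with values from -3.45 to -0.78. Pate6, a small secreted protein of the tract, differed by -1.52 and passed in 16 of 17. Cers3, a ceramide synthase, differed by -0.95 and passed in 10 of 16, with values from -0.98 to -0.58. Clca3a2 differed by -1.45 and passed in 13 of 17, with values from -1.80 to -0.86. Marchf11 differed by 1.19 and passed in 16 of 17. Gabrb1, a GABA receptor subunit, differed by 1.07 and passed in 11 of 17, with values from 0.40 to 1.13. A2m, the protease inhibitor alpha-2-macroglobulin, differed by 1.66 and passed in 12 of 17. Gad1, which makes GABA, differed by 1.23, with 1.65 and 1.55 and then 2.16 and 2.28 in the efferent duct (0.62, adjusted p = 0.0599), and it passed in 9 of 17 settings, with values from 0.56 to 1.40.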

How the results depend on the processing

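The 97 calls in the efferent duct became 153 with every probe set tested, 433 with array weights, 197 without the early efferent duct arrays, 2 with the efferent duct arrays alone and 21 with the 4 compared arrays alone, and 13 to 67 when 1 efferent duct array was left out. With quantile normalization there were 95 calls, split into 46 higher and 49 lower instead of 63 and 34, and 49 of the 97 genes were still called. The single difference from the epididymis became 18 with quantile normalization, 9 with array weights, 2 without the early efferent duct arrays and 2 without the epididymis arrays of E14.5. It was 0 with the mean of all probe sets (601 at an unadjusted p under 0.05 by limma) and 0 without the late vas deferens arrays (588), and 0 to 3 with 1 array left out. The 19 differences from the vas deferens became 3 with quantile normalization, 40 with array weights and 38 without the early efferent duct arrays, and 6 to 38 with 1 array left out. With 1 array left out, the uncalled differences ran from -0.038 to 0.71 for H2-Eb1 and from -0.97 to 0.16 for Hnf4a, and both reversed without P1 replicate 2. The cause was not tested. A fit that leaves out 1 of 2 arrays assumes that the lone array varies like the other groups.

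With the replicate number as a block the counts were 85, 1 and 20, and 79 of the 97 genes were still called. The numbers were not treated as a pairing.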

Other observations

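Several gene groups not described above had no call by limma in the efferent duct. Of 18 cholesterol synthesis genes 14 were lower at P1, with a median of -0.19 and 3 at an unadjusted p under 0.05. Of 24 oxidative stress defence genes 20 were higher, with a median of 0.13 and 5 at an unadjusted p under 0.05. Of 14 cell cycle inhibitors 6 were above 0 and 8 below, with a median of -0.03 and 5 at an unadjusted p under 0.05, of which 1 was higher and 4 were lower. Cdkn1a (p21) read 0.34 and 0.25 at E18.5 and -0.13 and -0.75 at P1 (-0.74, adjusted p = 0.0607), and Btg2, an antiproliferative gene, read 0.50 and 0.56 and then -0.02 and -0.18 (-0.63, adjusted p = 0.162). Btg1, a relative of Btg2, had a difference above 0, with -1.60 and -1.71 and then -0.74 and -1.20 (0.68, adjusted p = 0.162), while its other 2 probe sets gave 0.036 and 0.048. Of 11 erythroid markers 9 were lower, with a median of -0.10 and 1 at an unadjusted p under 0.05.

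The largest difference of all 18193 genes, noticed after the values were seen, was not a call. Car3, a carbonic anhydrase abundant in muscle and fat, had a difference of 2.45 with an SE of 0.72 (adjusted p = 0.194).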
